A study of Rattus norvegicus with 4 samples.

Results

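The genes described here are 10 genes that signalling through the kinase ERK is known to induce and that, for the most part, restrain it again: the phosphatase genes Dusp1, Dusp4, Dusp5 and Dusp6, the inhibitor genes Spry1, Spry2, Spry4 and Spred1, and the transcription factor genes Etv4 and Etv5. They were chosen by name, and every probe set that the platform annotation gives to exactly 1 of them was taken. These were 14 probe sets of 9 genes, out of 31042 on the array that are not controls. Spred1 has no such probe set and was not analysed here. RNA came from RT4D6 cells, a rat Schwannoma line that stands for Schwann cells only as a single tumour line can. The comparison was between groups of 2 cultures, both 48 h after siRNA: the wild type (specific) siRNA lowers Sox10, and the mutant (control) siRNA is its altered counterpart. No other agent is named for either group, and the 2 cultures of a group come from independent pairs of cell samples.

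Growth factor receptors at the cell surface switch on Ras, which starts a chain of kinases that ends in ERK. Active ERK enters the nucleus, where it raises transcription of immediate early genes and, soon after, of its own inhibitors. Sprouty and Spred proteins act near Ras, while the Dusp proteins take phosphate off MAP kinases directly. In Schwann cells this cascade carries the signal of neuregulin and is known for its part in dedifferentiation and repair after nerve injury.

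The measurement was 1 MAS5 signal per probe set on each of 4 Affymetrix Rat 230 2.0 arrays. The median signal of an array was between 101.3 and 110.4, and a signal near the 25th percentile (26.2 to 31.0) is close to background. The 3' to 5' ratio of the actin control probe sets was 1.87 on mutant siRNA replicate 1 and 1.39 to 1.54 on the other arrays. Sox10 itself, which the siRNA targets, gave signals of 163 and 335 under the specific siRNA, against 2873 and 2890 under the mutant siRNA (log2 fold change -3.54, adjusted p from limma = 0.00130). Of 10 markers of Schwann cells and glia, 6 could be tested and all 6 were down-regulated. With only probe sets at or above the median on all 4 arrays, the count was 4, since Erbb3 and Gfap were then not tested. Erbb3 reached the array median on the mutant siRNA arrays only. Sox10, the target of the siRNA, is among the 6. So are Ngfr and Erbb3, which the study selected as down-regulated on these arrays, so the direction of these genes is not independent evidence. Of 10 smooth muscle markers, 5 could be tested. Smtn was lower but not called in its 2 probe sets, at -0.84 and -0.47 (adjusted p from limma = 0.0633 and 0.448). Myh11 was not called either, at 1.37 (adjusted p = 0.137). Cnn1, Actg2, Myocd, Des and Lmod1 lay below the array median on at least 3 arrays. Cald1 was called higher in its brightest probe set (0.77, adjusted p = 0.0395) but not in another (0.79, adjusted p = 0.118). With Cald1, Acta2 and Tagln were also up-regulated, which made 3 genes. That count fell to 1 without mutant siRNA replicate 1, and 1 smooth muscle gene was lower without wild type siRNA replicate 2, with the replicate block or for uncentred signals. Of 6 markers of dividing cells, 5 were down-regulated, a count of 3 without mutant siRNA replicate 1 and of 2 without mutant siRNA replicate 2. No marker of macrophages and leukocytes was bright enough to test, and neither of the 2 tested fibroblast genes nor the 1 tested endothelial gene passed. Both fibroblast genes, Col1a1 and Col3a1, were however called higher with the replicate block (adjusted p = 0.0240 and 0.0277) and without wild type siRNA replicate 1 (adjusted p = 0.00767 and 0.00553). With bulk RNA, fewer cells of a type and less RNA per cell cannot be told apart.

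Dusp5 is the member that was higher under the specific siRNA, and its promoter is the one shown, because it holds a pair of matches to the CArG box, the binding motif of serum response factor, a known route from ERK to transcription. The stretch is the 250 bases upstream of the annotated start of Dusp5 on the plus strand of GRCr8, chr1:262543524-262543773, from RefSeq. Capitals mark the CArG boxes, which lie side by side at positions -82 to -73 and -72 to -63 from the start. A role of these boxes in the change of Dusp5 was not tested.

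Dusp5 promoter: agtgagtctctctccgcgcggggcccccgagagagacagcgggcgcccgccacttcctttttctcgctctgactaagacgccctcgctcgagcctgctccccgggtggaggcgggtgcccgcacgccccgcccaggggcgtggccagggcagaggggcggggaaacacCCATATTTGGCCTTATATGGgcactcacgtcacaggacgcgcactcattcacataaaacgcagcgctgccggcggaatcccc

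RefSeq promoter windows of 300 bases, 250 before and 50 after the start, were at hand for 8 of the 10 genes, Spry2 with 2 of them. Dusp4 and Etv4 had none. The CArG box (CC, then 6 bases that are each A or T, then GG, on either strand) was in the Dusp5 window and in no other of the 9. It is in 1.64% of all 33469 windows of the table. ACAAT, the core of the Sox sites that the study searched for, was in the windows of Dusp6 (positions -128 to -124), Spred1 (-228 to -224) and 1 of the 2 of Spry2 (-9 to -5), and in 33.7% of all windows. The study searched a wider span, from 2 kb upstream through the first intron, and kept only sites conserved between species. The matches in these short windows are therefore not comparable with its sites. TGACGTCA, the cyclic AMP response element, was in the Dusp1 window (-124 to -117) and in 1.83% of all. TGACTCA or TGAGTCA (AP-1) and CCGGAAGT (ETS) were in none of the 9, against 4.63% and 3.81% of all windows. A match is a description of these letters and not a measured binding site.

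As a group, the feedback genes did not move one way. Signals were turned to log2, centred on the median of each array and tested with limma over the 16125 probe sets that reached the array median on at least 2 arrays. Of the 14 member probe sets, 11 of 8 genes passed this filter. Of these, 1 was higher under the specific siRNA (Dusp5) and 1 was lower (Etv5) at an adjusted p under 0.05, 2 of 11 or 18.2%. Over all tested probe sets 26.7% were called, 14.6% higher and 12.1% lower, so the share among the members was not above the background. The 11 log2 fold changes, specific minus mutant siRNA, had a median of -0.13, beside a median of 0.13 over all tested probe sets. That overall shift was 0.05 for uncentred signals and 0.08 for quantile normalized ones, and single changes are to be read against it. In 5 of the 11 probe sets (45.5%) the centred values of the 2 groups did not overlap, 2 higher and 3 lower, while the same held for 68.7% of all tested probe sets (40.4% higher and 28.3% lower). Of the lower ones, Etv5 1382122_at passed the filter through the mutant siRNA arrays only, where it is high.

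**Figure D1:**
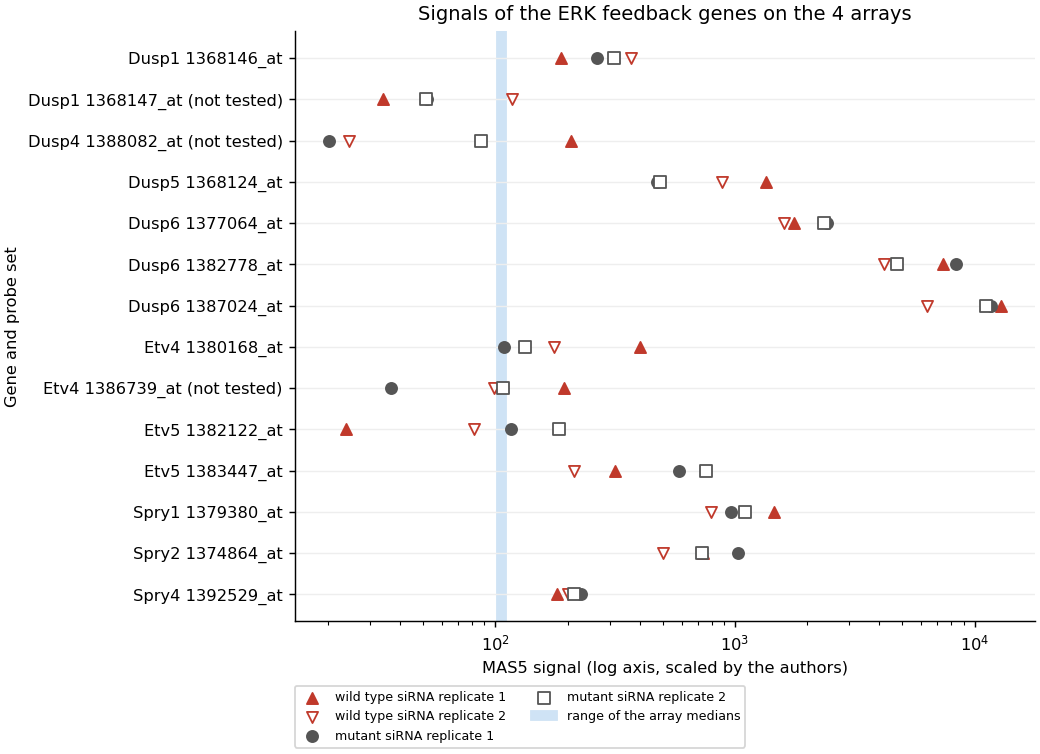
MAS5 signals (log axis) for the 14 probe sets of the feedback genes on each of the 4 arrays. Red triangles are the specific siRNA arrays, grey circles and squares the mutant siRNA arrays, filled for replicate 1 and open for replicate 2, and the blue band spans the array medians. For Dusp5 both specific siRNA arrays lie above both mutant siRNA arrays, for Etv5 both lie below, and for Spry1 and Dusp1 the specific siRNA arrays lie on either side of the mutant siRNA arrays. For Spry2 the filled triangle (737) lies behind the open square (726).

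Among the phosphatases, Dusp5, a nuclear enzyme specific for ERK, was higher under the specific siRNA. Its probe set (1368124_at) gave signals of 1349.7 and 885 under the specific siRNA, against 474 and 484 under the mutant siRNA. The mutant siRNA arrays were nearly equal, and both specific siRNA arrays lay above them. The mean rose from 479 ± 7.5 to 1117 ± 329 (SD, n = 2 each). The log2 fold change was 1.27 (standard error 0.24, 95% interval 0.71 to 1.83, adjusted p = 0.00881), a 2.41-fold increase. The replicate 1 arrays gave 1.54 and the replicate 2 arrays 0.99. The call held with any 1 array left out (adjusted p between 0.00152 and 0.0469) and under each scaling tried (0.00846 and 0.0101).

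Dusp6, the cytoplasmic phosphatase specific for ERK and a common readout of ERK activity, was measured by 3 probe sets, all well above the array median and none called. Probe set 1377064_at gave signals of 1771 and 1599.8 under the specific siRNA, against 2430.3 and 2344 under the mutant siRNA. The groups did not overlap there, and both pairs of arrays differed by the same amount, -0.42 and -0.43 on the log2 scale. The fit gave -0.42 (standard error 0.18, 95% interval -0.83 to -0.02, adjusted p = 0.106). Probe set 1382778_at gave signals of 7403 and 4178 under the specific siRNA, against 8367 and 4749 under the mutant siRNA. Here the replicate 1 arrays were the higher ones in both groups, and the log2 fold change was -0.10 (95% interval -0.83 to 0.62). Probe set 1387024_at gave signals of 12898 and 6324 under the specific siRNA, against 11771 and 11155 under the mutant siRNA. A single array, wild type siRNA replicate 2, stood lower than the other 3, and the log2 fold change was -0.26 (95% interval -0.89 to 0.36). Without wild type siRNA replicate 1 this became -0.75 and passed (adjusted p = 0.0261). None of the 3 intervals reached -1 or 1.

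Dusp1, an inducible nuclear phosphatase of several MAP kinases, showed no common direction. Probe set 1368146_at gave signals of 188 and 369 under the specific siRNA, against 267 and 313 under the mutant siRNA. The specific siRNA arrays lay on either side of the controls, and the log2 fold change was -0.05 (95% interval -0.89 to 0.78, adjusted p = 0.927). A second probe set (1368147_at) was too dim to test, at 34.1 and 118 under the specific siRNA and 51.8 and 51.1 under the mutant siRNA. Dusp4, a nuclear relative of Dusp1, was also too dim, at 207 and 24.4 for the specific siRNA, against 20.2 and 87.1 for the mutant siRNA. Wild type siRNA replicate 1 was the one array on which Dusp4 rose above the array median.

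The Sprouty genes encode membrane-associated inhibitors of signalling from receptor tyrosine kinases to Ras and ERK, and none of the 3 passed the test. Spry2 gave signals of 737 and 499 under the specific siRNA, against 1029.8 and 726 under the mutant siRNA. The specific siRNA array was the lower one in both pairs, by -0.45 and -0.42 on the log2 scale, but the replicate 1 arrays were higher in both groups, so that the groups overlapped. The fit gave -0.43 (95% interval -1.05 to 0.19, adjusted p = 0.260, and 0.130 with the replicate number as a block). Spry1 gave signals of 1461 and 793 under the specific siRNA, against 959 and 1100.1 under the mutant siRNA. Its pairs went opposite ways, 0.64 and -0.35, and the log2 fold change was 0.15 (95% interval -0.49 to 0.79). Spry4 was the steadiest, at 181 and 201 under the specific siRNA and 229 and 213 under the mutant siRNA, with a log2 fold change of -0.13 (95% interval -0.83 to 0.57) and groups that overlapped once the signals were centred.

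**Figure D2:**
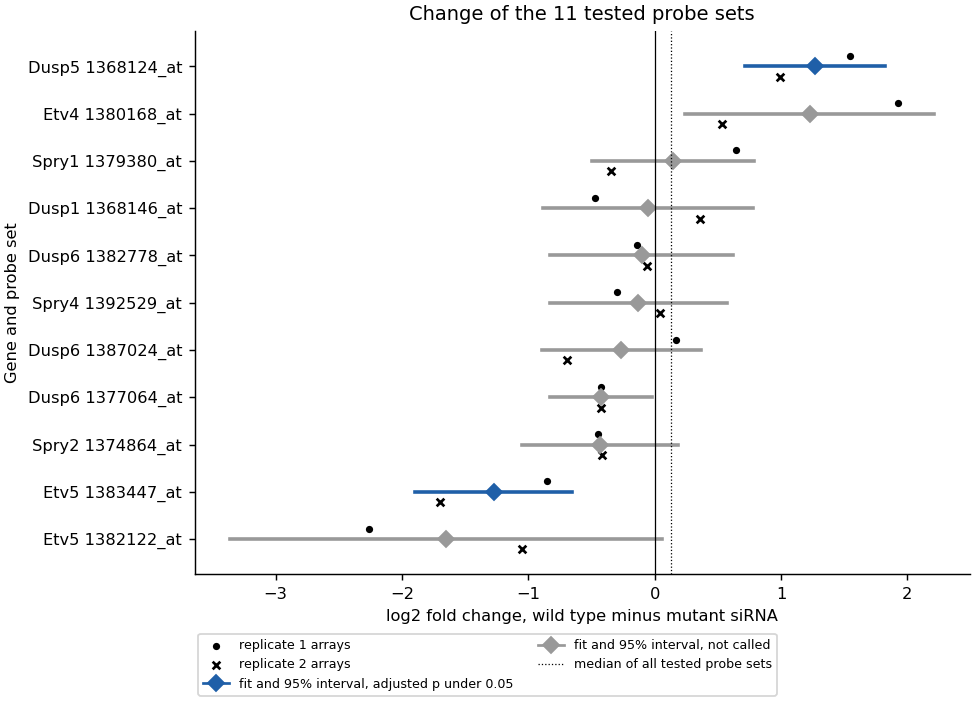
Log2 fold change (specific minus mutant siRNA) of the 11 tested probe sets. Diamonds and lines are the limma estimate and its 95% interval, blue where the adjusted p is under 0.05, dots and crosses are the differences within the replicate 1 and the replicate 2 arrays, and the dotted line is the median of all tested probe sets (0.13). Dusp5 at 1.27 and 1 probe set of Etv5 at -1.27 are blue, and most of the others have intervals that span 0.

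Etv4 and Etv5, close relatives in the PEA3 family of ETS transcription factors that ERK commonly induces, had changes of opposite sign. Etv5 was lower under the specific siRNA, with 1 of its 2 probe sets called. Probe set 1383447_at gave signals of 315 and 214 under the specific siRNA, against 583 and 755 under the mutant siRNA. Both specific siRNA arrays lay well below both controls. The log2 fold change was -1.27 (standard error 0.27, 95% interval -1.89 to -0.66, adjusted p = 0.0124), a 2.42-fold decrease, and leaving out mutant siRNA replicate 2 ended the call (-1.11, adjusted p = 0.0868). Probe set 1382122_at gave signals of 23.7 and 81.7 under the specific siRNA, against 116 and 184 under the mutant siRNA. It reached the array median on the mutant siRNA arrays only. Having passed the filter through the group where it is high, it adds no support for the direction. The order of the groups was the same, but wild type siRNA replicate 1 lay below the 25th percentile of its array (27.9), so the size of the change, -1.65, is not established (95% interval -3.36 to 0.06, adjusted p = 0.131, and -2.57 with adjusted p = 0.0233 without wild type siRNA replicate 2).

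Etv4 gave signals of 402 and 176 under the specific siRNA, against 108 and 132 under the mutant siRNA in probe set 1380168_at. Both specific siRNA arrays were the higher ones, with wild type siRNA replicate 1 far above the rest. The log2 fold change was 1.23 (standard error 0.43, 95% interval 0.24 to 2.21), and it did not pass the test (adjusted p = 0.0667). With the replicate number as a block it passed (adjusted p = 0.0290, where 36.5% of all tested probe sets were called, 20.5% higher and 16% lower), and it passed without wild type siRNA replicate 2 (adjusted p = 0.00945) but not without wild type siRNA replicate 1 (0.66, adjusted p = 0.403). A second probe set of Etv4 (1386739_at), too dim to test, gave signals of 193 and 98.8 under the specific siRNA, against 36.8 and 107 under the mutant siRNA. In each pair of arrays Etv4 was higher (1.92 and 0.53) and Etv5, by its brighter probe set, lower (-0.85 and -1.70) under the specific siRNA. The difference between the changes of the 2 genes was not tested.

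The specific siRNA cultures lay further apart in these genes than in the median probe set, which is given as a description, with no test. Over the 11 tested probe sets, the size of the log2 difference between the 2 specific siRNA arrays had a median of 0.77, beside 0.28 over all tested probe sets. For the 2 mutant siRNA arrays these medians were 0.19 and 0.25. The specific siRNA arrays were more than 1.5-fold apart for 6 of the 11 (both of the brightest Dusp6 probe sets, Spry1, Etv4, Dusp1 and the dimmer Etv5), and for 20.4% of all tested probe sets. The mutant siRNA arrays were so for 2 of the 11, against 16.6% of all. Replicate 1 was the higher specific siRNA array for 8 of the 11, after centring by 2.20-fold for Etv4, 1.96-fold for Dusp6 (1387024_at) and 1.77-fold for Spry1. Dusp1, Spry4 and the dimmer Etv5 probe set went the other way. Of all tested probe sets, 45.7% were higher on replicate 1. Several probe sets of Dusp6 and of Etv5 report on 1 gene each, so that these are not 11 independent values.

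**Figure D3:**
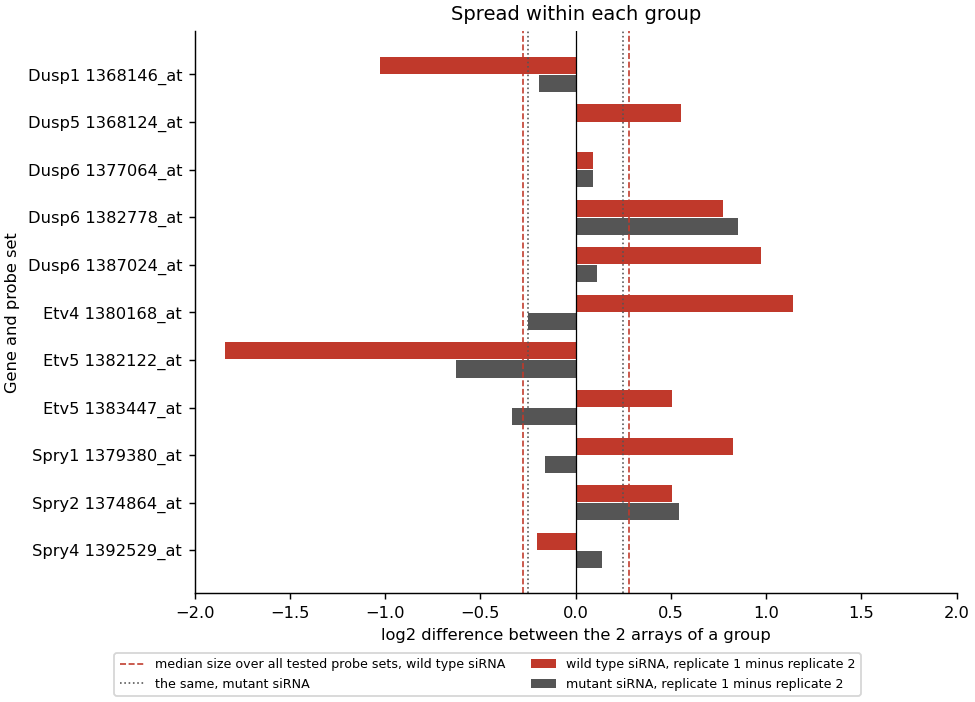
Log2 difference between the replicate 1 and the replicate 2 array of the same group, for the specific siRNA (red) and the mutant siRNA (grey), in the 11 tested probe sets. Dashed red and dotted grey lines mark the median size of that difference over all tested probe sets, 0.28 and 0.25. The red bars of Etv4, Dusp1, Spry1 and Dusp6 (1387024_at) go far past the lines, while their grey bars stay near or within them.

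The same 2 arrays differed in other ways too. Sox10 was at 163 on wild type siRNA replicate 1 and 335 on replicate 2. The summed signal of the 6 markers of dividing cells was 5152 and 11383 on these arrays, against 22336 and 26023 for the mutant siRNA. That of the 10 smooth muscle markers was 39159.6 and 50444 under the specific siRNA, and 15888 and 25031 under the mutant siRNA. Tagln and Cald1 alone were at 21241.7 and 15150 on wild type siRNA replicate 1, so this sum mostly describes these 2 genes. Smtn went the other way, at 279.8 and 400.5 against 521.9 and 770.5. The summed signal of the 7 Schwann cell markers with a probe set, Sox10 among them, was 3035 and 4124, against 23036 and 16281. No marker was listed at 0. The part of these differences in the values of the feedback genes was not tested.

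**Figure D4:**
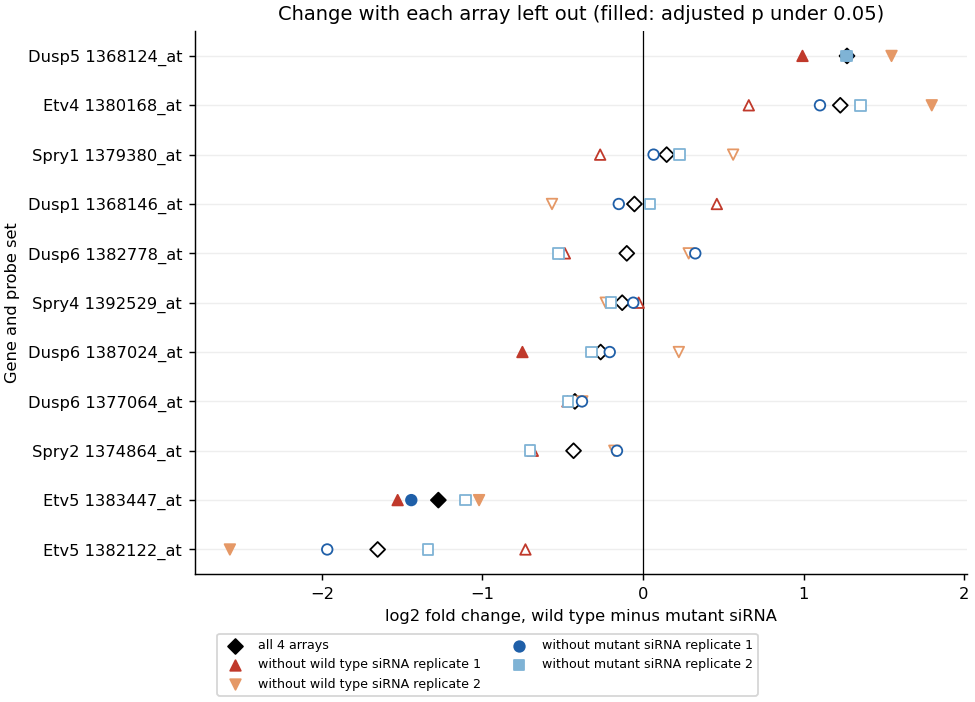
Log2 fold change (specific minus mutant siRNA) of the 11 tested probe sets with all 4 arrays (black diamonds) and after dropping each array once, filled where the adjusted p is under 0.05. Dusp5 is filled in every fit and lies between 0.99 and 1.55, while Spry1, Dusp1 and 2 probe sets of Dusp6 change sign.

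The cascade that carries the signal to ERK was taken as a list of 30 genes, of which 19 could be tested. Among those 7 genes had a probe set that was higher (36.8%) and 3 had one that was lower (15.8%), beside 19.7% and 12.8% of the 9165 named genes tested, 31.7% of which had a call in either direction. The list's counts were not stable. Both fell when either mutant siRNA array was left out, as did the calls over all tested probe sets. The lower count moved both ways when a wild type siRNA array was left out. Without the intensity trend of the fit the counts were 3 higher and 1 lower, where fewer probe sets were called in all. The adaptor gene Grb2 and the kinase gene Rps6ka3, an ERK substrate, are counted on both sides, since their probe sets disagreed. Another gene, Ptpn11, is counted as higher on its dimmer probe set (1.03, adjusted p from limma = 0.0261). Its brightest was at -0.45 and did not pass (adjusted p = 0.130). Grb2 gave signals of 4607 and 4259 under the specific siRNA, against 1754 and 1899.7 under the mutant siRNA in its brightest probe set (1.36, adjusted p = 0.0023) but was at -0.77 in another, a call lost without any array other than wild type siRNA replicate 2. Rps6ka3 was at 1.60 (adjusted p = 0.0134) and at -1.68, both of which were lost without mutant siRNA replicate 1 (adjusted p = 0.0711 and 0.0545), the second also without mutant siRNA replicate 2 (0.0633). Sos1, the exchange factor that loads Ras, was at 1.03 (adjusted p = 0.00926) and Rras, a relative of Ras, at 0.90 (adjusted p = 0.0203). Both calls were lost without mutant siRNA replicate 1 (adjusted p = 0.0576 and 0.112), and that of Rras also without mutant siRNA replicate 2 (0.0575). Pea15, which holds ERK in the cytoplasm, was at -0.69 (adjusted p = 0.0444), a call that held in 1 of the 4 fits that dropped an array. The kinases that activate ERK, Map2k1 and Map2k2, did not pass, at 0.34 and 0.48 (adjusted p = 0.183 and 0.107), the latter passing with the replicate block (0.0464).

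Other genes that restrain the pathway were also split. Of 20 listed, 10 could be tested, with 3 higher (30.0%) and 2 lower (20.0%), or 1 and 1 without mutant siRNA replicate 1 and 4 lower without wild type siRNA replicate 2. Rasa3, a GTPase-activating protein for Ras, was lower, with signals of 335 and 318 under the specific siRNA and 1975.5 and 1282 under the mutant siRNA. The change was -2.21 on the log2 scale (standard error 0.26, adjusted p = 0.00209), in a probe set that the study itself chose as down-regulated on these arrays, and a dimmer probe set was also lower (adjusted p = 0.0458, held in 1 of the 4 fits that dropped an array). That second probe set was at 12.5 on wild type siRNA replicate 1, below the 25th percentile of the array (27.9), and no size is given for it. It reached the array median on the mutant siRNA arrays only. Having passed the filter through the group where it is high, it adds no support for the direction. As the gene was selected on these arrays, its direction here is not independent evidence. Lrig1, which promotes loss of ErbB receptors from the cell surface, was at -1.44 (adjusted p = 0.0116), lost without mutant siRNA replicate 1 (0.0623). Errfi1, an inhibitor of the EGF receptor family, was at 1.53 (adjusted p = 0.0213), lost without mutant siRNA replicate 1 (0.111). The phosphatase genes Dusp14 and Dusp3 were at 1.28 (adjusted p = 0.0040) and 0.77 (adjusted p = 0.0434). The call of Dusp14 held with any 1 array left out, whereas that of Dusp3 was lost for uncentred (0.0663) and for quantile normalized signals (0.0727), and held in 1 of the 4 fits that dropped an array. Dusp7, a cytoplasmic phosphatase related to Dusp6, did not pass at -0.61 (adjusted p = 0.114), though it did with the replicate block (0.0278). Spry3 and Dusp9 were too dim to test.

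Genes that lie downstream of ERK fell into both directions. Of 23 listed, 19 could be tested, with 3 higher (15.8%) and 5 lower (26.3%), though 3 were lower without mutant siRNA replicate 1 and 5 higher without wild type siRNA replicate 1. The lower ones included Ccnd1, cyclin D1, with signals of 4145 and 3024 against 13019.6 and 10614 on the mutant siRNA arrays, a log2 fold change of -1.65 (adjusted p = 0.00207) that held with any 1 array left out. Fosl1, an AP-1 subunit, had a signal of 199.6 on both specific siRNA arrays, against 597 and 791 under the mutant siRNA (-1.70, adjusted p = 0.00365), and this call held likewise. Ets1 was at -1.68 (adjusted p = 0.0117), lost without either mutant siRNA array (0.0564 and 0.0566), and Hbegf, a ligand of the EGF receptor, at -1.28 (adjusted p = 0.0240), lost without mutant siRNA replicate 1 (0.136) and wild type siRNA replicate 1 (0.0627). The immediate early genes Egr1 and Junb were higher, at 1.52 and 1.14 (adjusted p = 0.0326 and 0.0103). Egr1 lost its call without mutant siRNA replicate 2 (0.156) or wild type siRNA replicate 1 (0.0880), and Junb without mutant siRNA replicate 1 (0.0647). The probe sets of Elk3, an ETS factor, disagreed, with 1 of 4 higher (1.41, adjusted p = 0.0205), the brightest at 0.45 and the others at -1.01 and -0.97, none of which passed. Fos, which pairs with Jun proteins in AP-1, was at 1.20 and did not pass (adjusted p = 0.0673, and 0.0105 with the replicate block).

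Of 20 receptor tyrosine kinases upstream, 8 could be tested, of which none was higher and 2 were lower (25% of 8). With the replicate block 1 was higher, the fibroblast growth factor receptor gene Fgfr1, whose 2 tested probe sets were at 0.72 and 0.73 (adjusted p = 0.0766 and 0.0562 without the block, 0.0225 and 0.0354 with it). Erbb3, the neuregulin receptor, had signals of 35.0 and 32.6 under the specific siRNA, close to background, and 674 and 438 under the mutant siRNA (-3.93, adjusted p = 0.00164), and the size of this change is therefore not established. It is also among the genes that the study selected on these arrays, so its direction is not independent evidence. Erbb3 reached the array median on the mutant siRNA arrays only, so it passed the filter through the group where it is high. The fits that dropped an array kept this filter. With the filter on all 4 arrays, 1 receptor was lower. Igf1r, the receptor of insulin-like growth factor 1, was at -1.91 (adjusted p = 0.00346) in its brightest probe set and at 0.22 in another that did not pass (adjusted p = 0.507). Both lower calls held with any 1 array left out. Over tested probe sets, the median log2 fold change was 0.21 for the cascade, 0.18 for the other inhibitors, -0.07 for the downstream genes and -0.03 for the receptors, beside 0.13 over all.

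**Figure D5:**
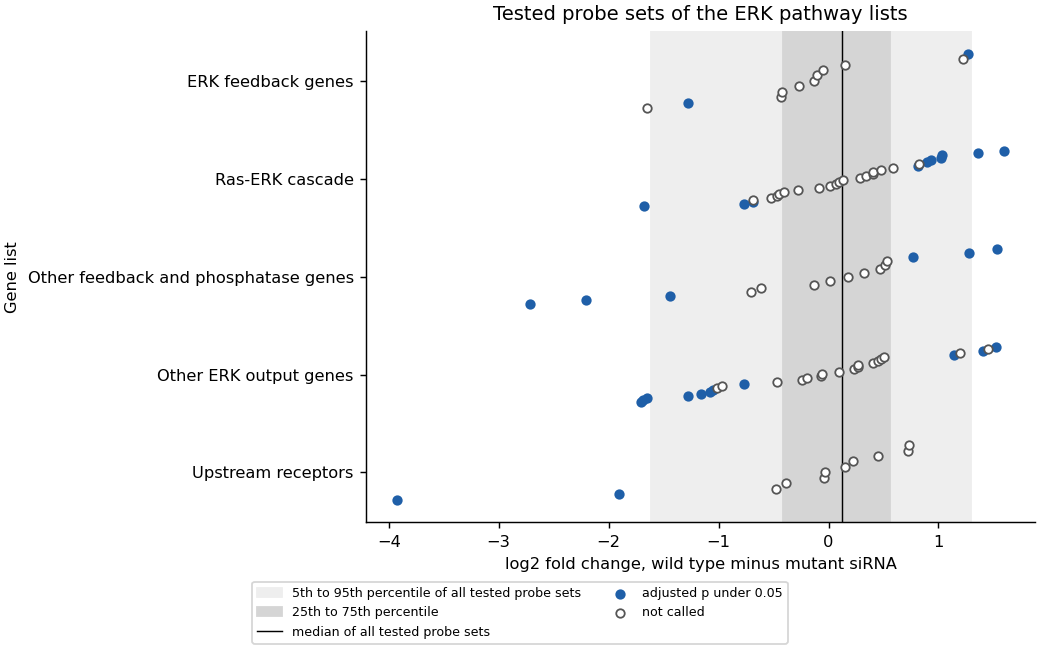
Log2 fold change (specific minus mutant siRNA) of the tested probe sets of the feedback genes and of the 4 lists of other ERK pathway genes. Each point is a probe set, in blue if its limma adjusted p is under 0.05. Grey bands span the 25th to 75th (-0.42 to 0.56) and the 5th to 95th percentile (-1.61 to 1.29) of all tested probe sets, and the line is their median. Blue points lie on both sides of the line in every list except the receptors, where both are lower.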

How the data were processed

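RNA of RT4D6 cells was profiled on 4 one-colour Affymetrix Rat 230 2.0 arrays, 2 per group. The authors deposited MAS5 intensity values (version not given in the sources used here), scaled so that the mean of each array without its lowest and highest 2% is 500.2. Their median normalization and detection filter are not in these values. After 57 control probe sets were left out, the median of each array was subtracted from its log2 signals. Probe sets that reached this median on at least 2 arrays entered a limma fit (version 3.58.1, R 4.3.3; lmFit, eBayes with an intensity trend), with Benjamini-Hochberg adjustment over all 16125. The script was tested on simulated data. The number of arrays limits the precision. Tables were made in pandas 2.3.3 under Python 3.11.15, and plots in matplotlib 3.10.9. The p-values measure only the spread between these arrays.

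The members, lists and tests were chosen with earlier results of these data known. Of each list, called genes were named by the largest change of their brightest probe set, up to 4 a direction, with up to 2 uncalled genes acting on ERK. Ptpn11, which was called, and Spry3, which was too dim to test, were named outside this rule. Fos and Fgfr1, which were not called, and the marker genes named were chosen after their values were seen. Same-numbered arrays are pairs of cell samples by the study's description, and their deviations from the group means correlated at 0.14 over probe sets, so a fit with the replicate number as a block was an alternative. The others were the scalings, a floor or a pseudocount of 28.1 on low signals, filters, the variance model, the methods' t-test and each array left out. Protein sequences were not used here.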

Additional observations from a re-analysis of the deposited data

How the results depend on the processing

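With all 4 arrays, the 11 member values kept their direction in every alternative, and 103 of 109 also their side of the threshold. Only the calls of Etv4, Etv5, Dusp5 and 1 probe set of Dusp6 (1377064_at) moved. Members called higher were 2 with the filter on all 4 arrays and 2 with the replicate block (Dusp5 and Etv4). Over all probe sets, that filter gave 2322 higher, and with the block 20.5% of those tested were higher. The block changed no other member call. The methods' t-test after Benjamini-Hochberg called 0 members higher and 0 lower, 2 probe sets higher and 0 lower in all, and 0 genes of the pathway lists. At an unadjusted p under 0.05 it called 1 member higher and 1 lower, Dusp5 and Dusp6, and Etv5 missed it. Of all 16125 tested probe sets, 2444 were then called higher and 1386 lower. Without the intensity trend, 1177 probe sets were higher and 1187 lower in all, against 2348 and 1956, and 13 list genes were called against 23 (3 higher and 1 lower in the cascade). Smooth muscle markers called higher were then 1 and dividing cell markers called lower 2, against 3 and 5. With 1 array left out, each lone array being assumed to vary like the other group, 1 to 2 member probe sets were higher and 0 to 2 lower, 924 to 2128 of all were higher and 706 to 2519 lower, and 10 to 27 list genes were called. Without mutant siRNA replicate 1 these were 1007 higher, 706 lower and 10 list genes, without mutant siRNA replicate 2 924, 903 and 16, without wild type siRNA replicate 1 1387, 1398 and 20, and without wild type siRNA replicate 2 2128, 2519 and 27. Uncalled members changed sign there: Dusp1 lay between -0.57 and 0.46, Spry1 between -0.27 and 0.56, and the Dusp6 probe sets 1382778_at and 1387024_at between -0.53 and 0.32 and between -0.75 and 0.22. The cause was not tested. Signals below the array median, as for Dusp4 and 1 probe set each of Dusp1 and Etv4, are too near background for a size of change.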
